A study of Solanum pimpinellifolium and Solanum chilense with 12 samples.

Results

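The response of self-compatible styles to their own pollen was followed in Solanum pimpinellifolium LA1585, a wild relative of the cultivated tomato. Styles with their stigmas were sequenced 24 h after self-pollination (SCP, 3 libraries) and after 24 h without pollination (SCUP, 3 libraries). The same design in self-incompatible S. chilense LA0130 (SIP and SIUP, 3 libraries each) serves below as a comparison of responses. Each species is represented by 1 accession, and no transgene or further treatment is named for any group. The study's methods name the 3 samples of a group biological replicates but do not tell whether each was a separate plant. The p-values cover only the spread of these samples, in which technical and plant-to-plant differences cannot be told apart. Expression is given as RPKM, a read count scaled to gene length and library depth. Of 34718 genes with values, 18913 had a value of at least 1 RPKM in 3 or more of the 6 S. pimpinellifolium libraries and were tested. Among these, 610 reached it in exactly 3 libraries, of which 127 rose and 18 fell, and 568 further genes reached it in exactly 2 libraries and were left out. All 127 of these rises passed through the SCP libraries alone and all 18 falls through the SCUP libraries alone, so some difference is built into them. The SCP libraries placed 12924607 to 13772190 reads on genes and the SCUP libraries 13395551 to 14497115. Genes above 0 numbered 23615 to 24111 in SCP libraries and 23751 to 23902 in SCUP libraries.

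Pollen that lands on a compatible stigma hydrates and germinates, and its tube grows through the transmitting tissue of the style towards the ovules. The tube lives on the secretions and loosened walls of that tissue, so pollination is commonly followed by changes in secretion, wall-modifying enzymes, signalling and defence-related proteins of the style. A pollinated style also contains pollen RNA. In these bulk samples a change in the number of cells of a type cannot be told apart from a change in RNA per cell, and RNA of the pollen tube cannot be told apart from that of the style. Genes are described by the Gene Ontology terms of the study's own annotation, which covers genes the authors selected. Only part of the annotation made for S. pimpinellifolium was held here, so a gene without a term may have one in the full annotation. Genes without a held term are given by their identifier alone.

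The SCUP libraries did not lack pollen-annotated transcripts. Solyc05g052110, annotated as a pectinesterase of pollen tube growth, had 169, 168 and 175 RPKM in SCP1, SCP2 and SCP3, against 108, 274 and 159 RPKM in SCUP1, SCUP2 and SCUP3. Its highest and its lowest value both lay in unpollinated styles, and the groups overlapped (log2 fold change 0.03, SE 0.32, adjusted p = 0.969). In S. chilense the same gene averaged 30.3 ± 6.20 RPKM in SIP and 10.6 ± 6.32 RPKM in SIUP (SD, n = 3 each). A set of 296 genes followed Solyc05g052110 over the 6 libraries to within a root mean square of 0.1 on the log2 scale. Of them 25 were annotated, and 2 carried the term pollen tube growth, Solyc05g052110 among them. The profile is therefore named after that gene. This set was chosen on these values, after they were seen, and is a description. It took 8.71%, 9.35% and 9.74% of the summed RPKM in SCP, against 5.73%, 14.7% and 8.24% in SCUP. Thus SCUP2 held more of it than any SCP library and SCUP1 less. In S. chilense it took 3.16%, 5.07% and 2.86% in SIP, against 2.60%, 0.822% and 0.917% in SIUP. Its members had log2 fold changes of -0.14 to 0.17 in S. pimpinellifolium, and none was called, which follows from how the set was chosen.

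Of the 8 genes annotated with pollen tube growth, 6 were tested and none was called. Together they held 503, 566 and 703 RPKM in SCP, against 261, 602 and 406 RPKM in SCUP. The wider list of pollen development, tube growth and sperm cell genes had 17 tested members, of which 4 rose and 0 fell (median log2 fold change 0.13). The 4 rises were among 5 members that the authors had selected on these same S. pimpinellifolium libraries. Its summed level was 1396, 1469 and 1973 RPKM in SCP, against 684, 1380 and 1006 RPKM in SCUP. The order SCUP1, SCUP3, SCUP2 from low to high, which is that of the profile, was also held by 34.6% of the genes that rose, by 4.50% of those that fell and by 16.5% of all tested genes. A fit with the mean level of the 296 genes as a covariate was added after the data were seen. In it 896 genes rose and 499 fell, and 1086 of the 1303 calls below were shared. The 296 genes were chosen to follow a gene with almost no group difference, so this covariate could hardly shift a group difference. The part of pollen RNA in the calls was not tested.

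**Figure D1:**
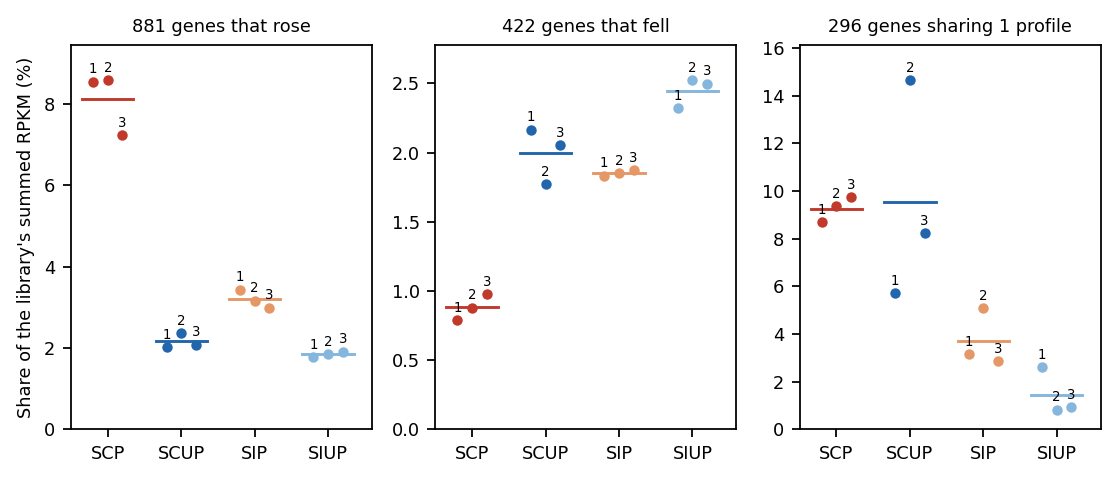
Percent of each library's summed RPKM (vertical axis) taken by the genes that rose, the genes that fell and the 296 genes that share the profile of Solyc05g052110, with 1 numbered point per library, a line at the group mean, and the pollinated libraries of each species left of the unpollinated ones. The rising genes take 7.23% to 8.58% in SCP and 2.02% to 2.37% in SCUP, whereas the shared profile takes 5.73% to 14.7% within SCUP alone. All these sets were chosen on the S. pimpinellifolium values shown, so this contrast follows from the choice.

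Self-pollination changed 1303 genes, 6.89% of those tested (limma on log2(RPKM + 0.5), Benjamini-Hochberg adjusted p under 0.05). Of these, 881 rose (4.66%) and 422 fell (2.23%). The rises were also larger. At least 4-fold changes were held by 403 rises and 9 falls, at least 8-fold by 166 rises and 0 falls, and at least 16-fold by 36 rises. The median log2 fold change was 1.90 among the rises and -1.11 among the falls. The genes that rose together took 8.55%, 8.58% and 7.23% of the summed RPKM in SCP, against 2.02%, 2.37% and 2.08% in SCUP. The genes that fell took 0.788%, 0.880% and 0.977% in SCP, against 2.17%, 1.77% and 2.05% in SCUP. Both sets were chosen on these same libraries, so the direction of these shares follows from the choice. Every called gene had its 3 SCP libraries on 1 side of its 3 SCUP libraries, a separation found in 36.3% of all tested genes.

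Among the rises SCP2 was the highest SCP library for 388 genes, SCP1 for 346 and SCP3 for 147. The highest SCP value was at least 2 times the lowest for 32.0% of the rises, against 20.4% of all tested genes. The counts rested on single libraries, since 276 genes were called without SCUP1 (15 of them falls), 225 without SCUP3 (10 falls), 461 without SCP2 (54 falls) and 638 without SCP3 (177 falls). Leaving out each of the 6 libraries in turn, 189 rises stayed called each time, 158 of them at least 4-fold, and so did 3 falls. The balance also moved with the scaling, from 881 rises and 422 falls to 915 and 827 when libraries were scaled by their upper quartile.

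**Figure D2:**
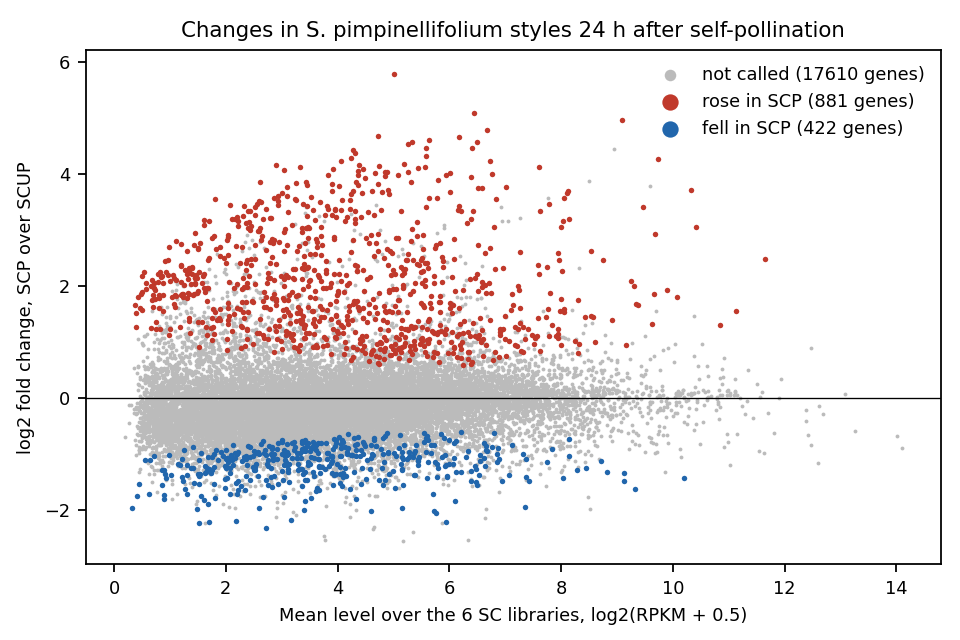
Log2 fold change of SCP over SCUP (vertical axis) against the mean log2(RPKM + 0.5) of the 6 libraries (horizontal axis) for the 18913 tested genes, with the 881 rises and 422 falls coloured. Called rises reach 5.79 and called falls -2.31 on the log2 scale.

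The largest rise was that of Solyc08g080670. It had 87.3, 32.1 and 69.7 RPKM in SCP, against 0.421, 0.110 and 1.62 RPKM in SCUP (log2 fold change 5.79, SE 0.54, adjusted p = 0.00502). All 3 pollinated libraries stood far above the unpollinated ones, and SCP2 was the lowest of the pollinated ones. The gene is listed at 0 in all 6 S. chilense libraries. The second largest rise, Solyc08g080650, stands close to it in the gene order. It had 69.4, 281 and 149.98 RPKM in SCP, against 0.629, 6.55 and 9.07 RPKM in SCUP (log2 fold change 5.08, SE 0.86, adjusted p = 0.0211). Here SCP2 was the highest library, and the call held in 14 of 18 alternatives.

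Solyc10g076240 was the most abundant of the 15 largest rises, with 519.9, 1629 and 989 RPKM in SCP, against 7.82, 72.2 and 45.8 RPKM in SCUP (log2 fold change 4.96, SE 0.82, adjusted p = 0.0198). Solyc12g007050 had 174, 193 and 219 RPKM in SCP, against 1.81, 14.3 and 9.75 RPKM in SCUP (log2 fold change 4.79, SE 0.64, adjusted p = 0.0108). In both, SCUP1 was the lowest of the unpollinated libraries. Neither gene has a term in the annotation held here. Solyc04g064880, also without one, had 70.8, 239.8 and 104 RPKM in SCP, against 1.43, 7.34 and 6.88 RPKM in SCUP (log2 fold change 4.66, SE 0.65, adjusted p = 0.0124).

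Among the 15 largest rises, 4 were annotated, 2 of them with defence against fungi. Solyc08g068770, annotated with sulfate transport, had 46.3, 53.9 and 48.9 RPKM in SCP, against 0.306, 4.63 and 1.33 RPKM in SCUP (log2 fold change 4.67, SE 0.60, adjusted p = 0.0105). Solyc01g006950, annotated with defence against fungi and vesicle-mediated transport, the movement of cargo between membranes, had 93.1, 101 and 88.9 RPKM in SCP, against 0.895, 7.82 and 4.64 RPKM in SCUP (log2 fold change 4.60, SE 0.60, adjusted p = 0.0106). In both genes the 3 pollinated libraries lay close together and the unpollinated ones were spread. Solyc01g097270, annotated as chitin-binding, had 94.0, 244 and 145 RPKM in SCP, against 2.35, 11.7 and 8.61 RPKM in SCUP (log2 fold change 4.46, SE 0.58, adjusted p = 0.0107). Solyc03g096550, annotated to the thylakoid, plasma and vacuolar membranes, had 33.1, 40.5 and 35.6 RPKM in SCP, against 0.779, 1.35 and 1.58 RPKM in SCUP (log2 fold change 4.43, SE 0.23, adjusted p = 0.00241). The other 6 genes of the 15, Solyc04g083140, Solyc05g053610, Solyc04g040130, Solyc02g085010, Solyc08g080660 and Solyc07g062490, rose by 4.31 to 4.57 on the log2 scale and carry no term.

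**Figure D3:**
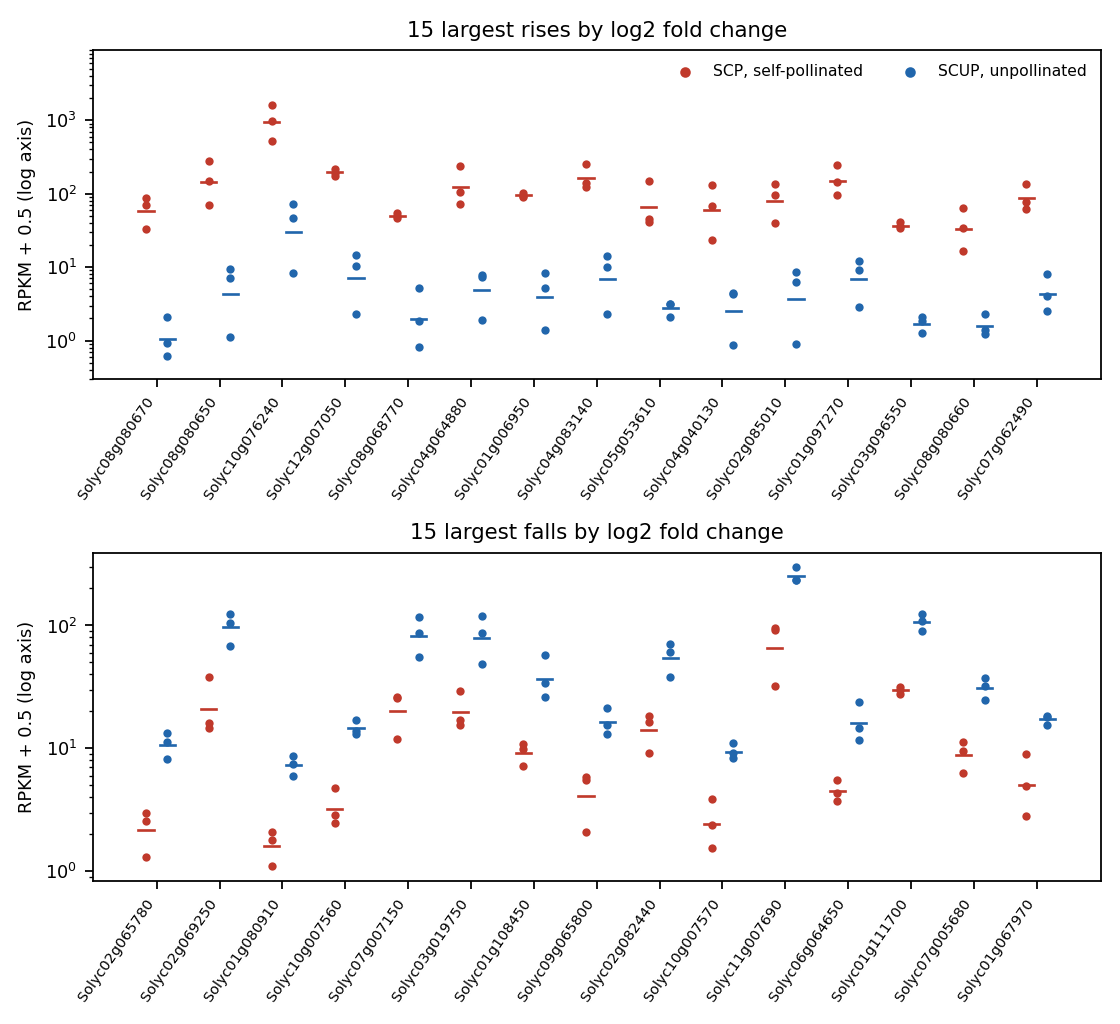
RPKM + 0.5 on a log axis of the 15 largest rises (upper panel) and the 15 largest falls (lower panel), with 1 point per SCP or SCUP library and a line at the mean on the log scale. In every gene shown the 3 SCP points lie on 1 side of the 3 SCUP points, and the gap is wider for the rises than for the falls.

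Some rising genes stood side by side. Of the 873 rises on numbered chromosomes, 165 (18.9%) had an adjacent gene that also rose, against 5.89% of all tested genes. Of 419 falls 29 (6.92%) had an adjacent fall, against 2.94% of all tested genes. Copies of a gene in tandem can share reads when they are nearly identical, and the treatment of reads that match more than 1 gene is not given in the sources used here. Runs of this kind, including those described next, were picked after their values were seen. The longest held 6 consecutive rises, Solyc08g080630 to Solyc08g080680, with log2 fold changes of 1.23 to 5.79. Solyc08g080640 in it had 39.2, 158 and 77.1 RPKM in SCP, against 2.34, 9.47 and 9.81 RPKM in SCUP (log2 fold change 3.57, SE 0.65, adjusted p = 0.0260). Solyc08g080660 had 63.0, 15.9 and 33.7 RPKM in SCP, against 0.724, 0.905 and 1.81 RPKM in SCUP (log2 fold change 4.38, SE 0.50, adjusted p = 0.00816). The members did not share 1 pattern within the pollinated group, since Solyc08g080640 and Solyc08g080650 were highest in SCP2 and Solyc08g080660 and Solyc08g080670 were lowest there. The last member, Solyc08g080680, was already expressed without pollination, with 105, 76.9 and 75.8 RPKM in SCP, against 36.8, 32.3 and 39.3 RPKM in SCUP (log2 fold change 1.23, SE 0.18, adjusted p = 0.0153).

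A second run of 4 rises, Solyc08g068600 to Solyc08g068630, had log2 fold changes of 2.17 to 3.66. Of these genes Solyc08g068600 and Solyc08g068610 are annotated as pyridoxal phosphate enzymes of carboxylic acid metabolism. Solyc08g068600 had 3.25, 34.6 and 6.71 RPKM in SCP, against 0.0557, 0.464 and 0.375 RPKM in SCUP (log2 fold change 3.66, SE 0.77, adjusted p = 0.0395). Solyc08g068610 had 4.57, 14.98 and 3.65 RPKM in SCP, against 0.0879, 0.274 and 0.423 RPKM in SCUP (log2 fold change 3.20, SE 0.51, adjusted p = 0.0179). Most of the level of both came from SCP2. There were 15 runs of at least 3 rises, with 49 genes, and 1 run of 3 falls, Solyc01g087370 to Solyc01g087390, with log2 fold changes of -1.28 to -1.07.

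For the families and processes, genes were grouped by their Gene Ontology terms. The authors annotated genes that they had selected in S. pimpinellifolium, on these same 6 libraries, and genes that they had selected in S. chilense. Of the S. pimpinellifolium annotation only a part, with 474 genes, was held here. Selected in S. chilense alone therefore means annotated for S. chilense and absent from that part. Some of these genes may have been selected in S. pimpinellifolium too. Genes selected in S. pimpinellifolium are not independent evidence of a direction, and the others may not be fully so. Of the 419 tested genes of the held S. pimpinellifolium part, 244 rose (58.2%) and 43 fell (10.3%). Of the 312 tested genes selected in S. chilense alone, 53 rose (16.99%) and 9 fell (2.88%), and they are counted apart below. The median log2 fold change was 1.12 in the held S. pimpinellifolium part and 0.36 among those selected in S. chilense alone. Selection in S. pimpinellifolium required a change in these libraries, so a list median unlike that of all tested genes (-0.12) is partly built in. The counts and medians of each list are to be read against these values. Over all tested genes the shares were 4.66% and 2.23%. The annotation held here covers 33.7% of the rises and 12.3% of the falls, so the lists describe the rises more fully. Each list holds only genes with a held term and may be a small part of its family. In the lists, no gene of the held S. pimpinellifolium part had a log2 fold change below -1.20, whereas the largest fall was -2.31. The balance of rises and falls within a list thus also depends on which genes were held. Across all lists 402 genes were tested, of which 173 rose and 26 fell. Without SCUP1 or SCUP3, 78 and 67 of them rose and 0 fell, and without SCP2, 102 rose and 1 fell.

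**Figure D4:**
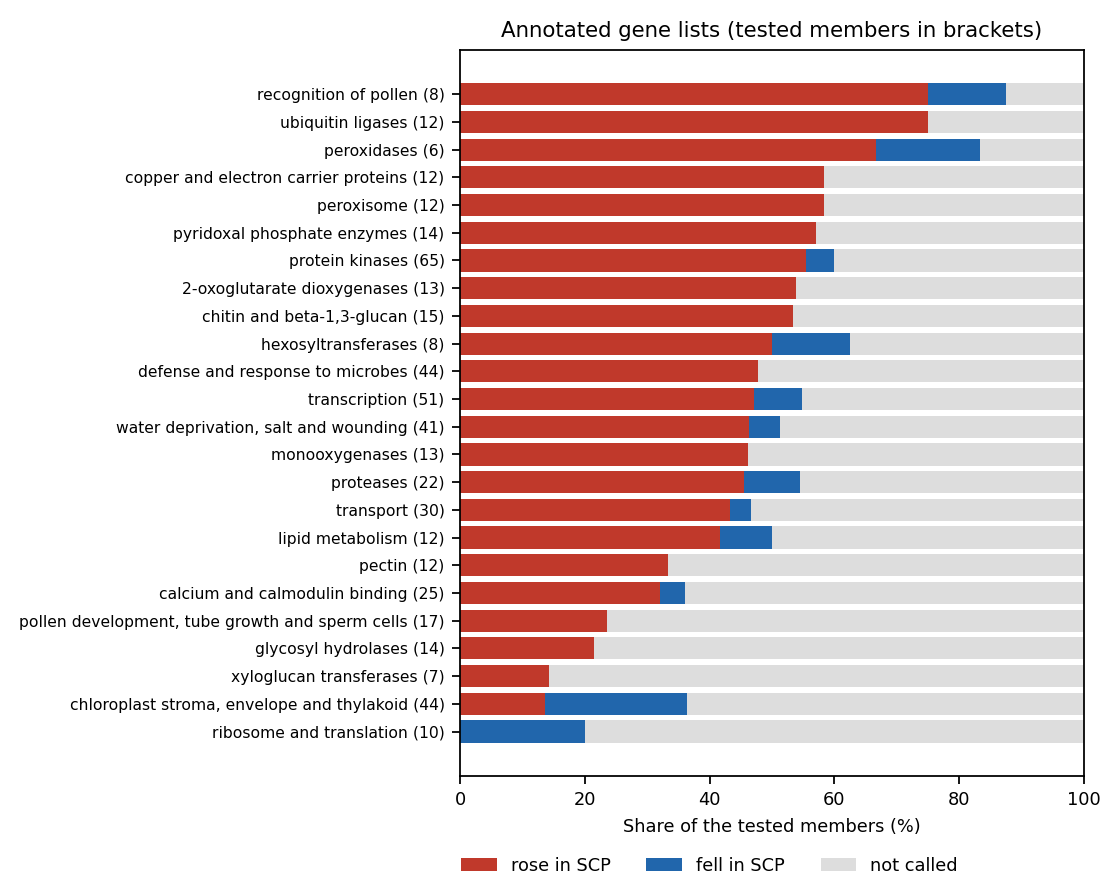
Share of the tested members (horizontal axis, %) of each gene list that rose in SCP, fell in SCP or were not called, with the number tested beside each list. Rises outnumber falls in every list but those of the chloroplast (6 rises, 10 falls) and of ribosome and translation (0 rises, 2 falls). The annotation held here covers 33.7% of all rises and 12.3% of all falls, so this balance also depends on which genes were held.

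Of 44 tested genes annotated with defence or a response to microbes, 21 rose, 0 fell and 23 were not called (median log2 fold change 1.05, against -0.12 over all tested genes). Their log2 fold changes ran from -1.12 to 4.60, and 11 of the rises stayed called with each library left out in turn. The share that rose, 18 of the 27 genes selected in S. pimpinellifolium and 3 of the 17 selected in S. chilense alone, was near that of all genes so selected. Of 15 tested genes of chitin and beta-glucan, 8 rose and 0 fell (median 1.61). Both polymers occur in fungal walls, and callose-type beta-glucans occur in plants too. The rises were 6 of the 7 selected in S. pimpinellifolium and 2 of the 8 selected in S. chilense alone. Solyc10g055800, a chitinase that is annotated as chitin-binding and extracellular, had 182, 241 and 177 RPKM in SCP, against 4.56, 11.5 and 19.2 RPKM in SCUP (log2 fold change 4.22, SE 0.46, adjusted p = 0.00731). Solyc04g072000, a second chitinase, had 49.9, 65.4 and 70.1 RPKM in SCP, against 0.839, 8.92 and 4.21 RPKM in SCUP (log2 fold change 3.98, SE 0.65, adjusted p = 0.0189). Both genes were tightly grouped in pollinated styles and varied several times over in unpollinated ones. Solyc09g014990, annotated with regulation of transcription and the response to chitin, had 20.8, 11.9 and 14.5 RPKM in SCP, against 0.809, 1.42 and 2.08 RPKM in SCUP (log2 fold change 3.08, SE 0.32, adjusted p = 0.00661).

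Further members show the range of levels within the defence list. Solyc07g042430, annotated with FAD binding, the hypersensitive response and systemic acquired resistance, had 11.4, 10.03 and 14.5 RPKM in SCP, against 0.651, 1.60 and 0.492 RPKM in SCUP (log2 fold change 3.21, SE 0.32, adjusted p = 0.00612). Solyc11g044840, annotated with pyridoxal phosphate binding and defence against bacteria, was far more abundant, with 772, 546 and 858 RPKM in SCP, against 124, 166 and 103 RPKM in SCUP (log2 fold change 2.47, SE 0.26, adjusted p = 0.00661). Outside the rule by which genes were named, and chosen after its values were seen, Solyc01g059980 is annotated as a glucan endo-beta-glucosidase, an enzyme that cleaves callose-type glucans. It had 3.20, 3.03 and 4.30 RPKM in SCP, against 0.0250, 0.0293 and 0.237 RPKM in SCUP (log2 fold change 2.75, SE 0.27, adjusted p = 0.00565).

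Protein kinases formed the largest list. Of 65 tested, 36 rose and 3 fell (median log2 fold change 1.12), and 7 of the rises stayed called with each library left out in turn. Of the 38 selected in S. pimpinellifolium 31 rose, and of the 27 selected in S. chilense alone 5 rose, a share near that of all such genes, and 1 fell. The term recognition of pollen is carried by S-domain receptor-like kinases, a family named after the receptor that rejects self-pollen in crucifers. In tomato relatives self-pollen is rejected through style ribonucleases instead. Of 8 tested kinases with that term, 6 rose and 1 fell (median 1.81). Of the 5 selected in S. pimpinellifolium 4 rose and 1 fell, and of the 3 selected in S. chilense alone 2 rose. Solyc09g075910 had 22.5, 53.8 and 29.4 RPKM in SCP, against 0.524, 1.94 and 1.57 RPKM in SCUP (log2 fold change 4.27, SE 0.43, adjusted p = 0.00611). Solyc04g077270 had 16.8, 15.6 and 21.3 RPKM in SCP, against 0, 1.37 and 4.43 RPKM in SCUP (log2 fold change 3.45, SE 0.75, adjusted p = 0.0419). The call of Solyc09g075910 held with each library left out and that of Solyc04g077270 did not.

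The remaining kinases with that term were lower or moved less. Solyc09g011330 had 10.4, 4.24 and 4.03 RPKM in SCP, against 0.360, 0.634 and 0.851 RPKM in SCUP (log2 fold change 2.49, SE 0.39, adjusted p = 0.0175). Solyc07g063730 had 2.58, 3.74 and 2.19 RPKM in SCP, against 0.267, 0.741 and 0.342 RPKM in SCUP (log2 fold change 1.82, SE 0.30, adjusted p = 0.0205). The most abundant of them, Solyc02g079590, was not called, with 68.9, 44.5 and 50.5 RPKM in SCP, against 26.4, 30.4 and 37.8 RPKM in SCUP (log2 fold change 0.78, SE 0.22, adjusted p = 0.0817). Its groups did not overlap, as for 36.3% of tested genes. The single fall was that of Solyc02g030380, with 4.95, 4.72 and 6.20 RPKM in SCP, against 9.91, 11.8 and 11.2 RPKM in SCUP (log2 fold change -0.99, SE 0.18, adjusted p = 0.0268).

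A pair of adjacent kinases annotated with pollen sperm cell differentiation rose. Solyc02g090970 had 316, 308 and 431 RPKM in SCP, against 35.9, 136 and 65.5 RPKM in SCUP (log2 fold change 2.34, SE 0.45, adjusted p = 0.0317). Solyc02g090980 had 18.9, 20.6 and 25.7 RPKM in SCP, against 2.65, 5.17 and 2.48 RPKM in SCUP (log2 fold change 2.55, SE 0.29, adjusted p = 0.00785). Both, like the profile of Solyc05g052110, were highest in SCUP2 among the unpollinated libraries, and the part of that profile in their result was not tested. Another kinase with the term, Solyc02g064980, had 42.1, 34.2 and 57.3 RPKM in SCP, against 34.4, 46.7 and 47.2 RPKM in SCUP, and its groups overlapped (adjusted p = 0.935).

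Calcium carries signals from the cell surface inwards in plants, and calmodulin is one of its sensors. Of 25 tested genes of calcium and calmodulin binding, 8 rose and 1 fell (median log2 fold change 0.95). Among the 10 selected in S. chilense alone, 1 rose. Solyc04g049090, a calmodulin-binding membrane protein annotated with defence against fungi, had 249.8, 156 and 142 RPKM in SCP, against 21.2, 27.7 and 34.7 RPKM in SCUP (log2 fold change 2.67, SE 0.28, adjusted p = 0.00645). SCP1 was its highest and SCUP1 its lowest library, and the call held with each library left out. The other named rises of the list, Solyc02g079170, Solyc09g098160, Solyc04g009800 and Solyc02g088090, had log2 fold changes of 1.14 to 1.96.

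Of 51 tested regulators of transcription, 24 rose and 4 fell (median log2 fold change 1.37), and 12 of the rises stayed called with each library left out in turn. Among the 27 selected in S. chilense alone, 7 rose and 1 fell. Solyc05g015850, a sequence-specific transcription factor, had 156, 161 and 149 RPKM in SCP, against 4.92, 18.6 and 9.35 RPKM in SCUP (log2 fold change 3.95, SE 0.42, adjusted p = 0.00692). Its pollinated libraries agreed closely, and its unpollinated ones took the order of the profile of Solyc05g052110. Solyc08g007230 had 188, 54.7 and 60.4 RPKM in SCP, against 3.70, 10.7 and 7.70 RPKM in SCUP (log2 fold change 3.56, SE 0.55, adjusted p = 0.0166), with SCP1 well above the other pollinated libraries. Solyc07g055710 had 12.3, 8.43 and 6.98 RPKM in SCP, against 0.340, 0.809 and 0.794 RPKM in SCUP (log2 fold change 3.08, SE 0.30, adjusted p = 0.00551). The 4 falls, Solyc02g071260, Solyc01g008490, Solyc08g083230 and Solyc01g028870, were of about the same size, from -1.05 to -0.97.

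Protein turnover was represented by ubiquitin ligases, which mark proteins for degradation, and by proteases. Of 12 tested ubiquitin ligases, 9 rose and 0 fell (median log2 fold change 1.23), but 1 rise stayed called with each library left out in turn. All 8 of those selected in S. pimpinellifolium rose and 1 of the 4 selected in S. chilense alone. Solyc06g074140 had 11.6, 9.26 and 19.4 RPKM in SCP, against 0.129, 2.06 and 0.311 RPKM in SCUP (log2 fold change 3.61, SE 0.55, adjusted p = 0.0163). SCUP2 was its highest unpollinated library. Of 22 tested proteases, 10 rose and 2 fell (median 0.34). The rises were 9 of the 18 selected in S. pimpinellifolium and 1 of the 4 selected in S. chilense alone. Solyc01g087850, a serine endopeptidase, had 125, 125 and 105 RPKM in SCP, against 5.42, 12.7 and 9.68 RPKM in SCUP (log2 fold change 3.68, SE 0.30, adjusted p = 0.00379). Solyc01g079940, an aspartic endopeptidase, had 342, 358 and 489 RPKM in SCP, against 19.5, 91.3 and 24.2 RPKM in SCUP (log2 fold change 3.46, SE 0.55, adjusted p = 0.0179). The serine endopeptidase kept its call with each library left out and the aspartic one did not. The falls, Solyc01g112280 and Solyc04g049720, had log2 fold changes of -1.04 and -1.0.

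Oxidative enzymes had rises in each of the 4 classes examined and 1 fall, among the peroxidases. Monooxygenases, which insert oxygen into small molecules such as hormones and defence compounds, had 13 tested members, of which 6 rose and 0 fell (median log2 fold change 1.49). None of the 4 selected in S. chilense alone rose. Solyc08g079420 had 32.8, 45.9 and 34.6 RPKM in SCP, against 0.639, 4.13 and 2.15 RPKM in SCUP (log2 fold change 3.97, SE 0.48, adjusted p = 0.00914). Solyc12g042480 was expressed without pollination too, with 38.3, 36.2 and 32.6 RPKM in SCP, against 6.01, 8.51 and 6.38 RPKM in SCUP (log2 fold change 2.29, SE 0.18, adjusted p = 0.00379). Both calls held with each library left out in turn.

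The oxoglutarate-dependent dioxygenases act in hormone and secondary metabolism and include the last enzyme of ethylene synthesis. Of 13 tested, 7 rose and 0 fell (median log2 fold change 1.76), including 3 of the 8 selected in S. chilense alone. Solyc11g007890 had 92.5, 69.9 and 80.3 RPKM in SCP, against 2.55, 6.37 and 4.54 RPKM in SCUP (log2 fold change 4.10, SE 0.30, adjusted p = 0.00379). Solyc09g010020 had 37.0, 35.7 and 33.7 RPKM in SCP, against 1.94, 2.35 and 2.64 RPKM in SCUP (log2 fold change 3.68, SE 0.17, adjusted p = 0.00216). Solyc09g010020 had little spread in either group, whereas SCUP1 of Solyc11g007890 was well below SCUP2. Solyc02g062460 had 331, 656 and 533 RPKM in SCP, against 33.9, 106 and 41.5 RPKM in SCUP (log2 fold change 3.19, SE 0.46, adjusted p = 0.0141).

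Peroxidases are enzymes that use hydrogen peroxide and take part in wall cross-linking. Of 6 tested genes with a held peroxidase term, 4 rose and 1 fell (median log2 fold change 2.05). Peroxidases without a held term are not counted, so these 6 do not describe the whole family. Solyc11g072920, annotated with flower development, had 8.97, 18.7 and 18.4 RPKM in SCP, against 0.0729, 1.52 and 0.701 RPKM in SCUP (log2 fold change 3.76, SE 0.50, adjusted p = 0.0110). Solyc02g092580 had 36.1, 18.6 and 26.5 RPKM in SCP, against 4.25, 3.23 and 5.87 RPKM in SCUP (log2 fold change 2.46, SE 0.30, adjusted p = 0.00932). The fall was that of Solyc02g080530, with 1.04, 1.06 and 2.36 RPKM in SCP, against 7.10, 3.83 and 5.43 RPKM in SCUP (log2 fold change -1.61, SE 0.34, adjusted p = 0.0392). All 4 rises are of genes selected in S. pimpinellifolium and the fall is of a gene selected in S. chilense alone.

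Of 12 tested copper-binding and electron carrier proteins, 7 rose and 0 fell (median log2 fold change 1.09). All 7 had been selected in S. pimpinellifolium, and none of the 5 selected in S. chilense alone rose. Solyc03g116700 had 344, 459 and 295 RPKM in SCP, against 10.2, 37.0 and 21.4 RPKM in SCUP (log2 fold change 4.13, SE 0.44, adjusted p = 0.00713), so an already present transcript became abundant. Solyc04g054690, a secreted copper protein, had 3.42, 4.17 and 5.53 RPKM in SCP, against 0.0709, 0.295 and 0.443 RPKM in SCUP (log2 fold change 2.67, SE 0.29, adjusted p = 0.00735).

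The pectin list joins several kinds of enzymes. Pectinesterases, polygalacturonases and pectate lyases remodel or cleave the pectin of the wall, and both the transmitting tissue and the pollen tube use them. Of 12 tested, 4 rose and 0 fell (median log2 fold change 0.14). All 4 rises had been selected in S. pimpinellifolium, and the 8 genes selected in S. chilense alone had log2 fold changes of 0.03 to 0.15. Of 9 tested pectate lyases and pectinesterases, 6 belong to the 296 genes with the profile of Solyc05g052110. Solyc03g058910, a pectate lyase, had 2953, 3115 and 3251 RPKM in SCP, against 1869, 4708 and 2733 RPKM in SCUP (log2 fold change 0.10, SE 0.37, adjusted p = 0.893). Solyc02g087670, a further pectate lyase, had 1087, 1186 and 1247 RPKM in SCP, against 644, 1725 and 1078 RPKM in SCUP. For both, SCUP2 lay above and SCUP1 below all pollinated libraries.

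The profile admits only genes whose group difference is close to that of Solyc05g052110. The 4 pectin genes that rose could therefore not be among its 296 genes. Both polygalacturonases that rose kept the profile's order of SCUP1, SCUP3 and SCUP2. Solyc12g096750, a polygalacturonase, had 379.6, 389 and 299 RPKM in SCP, against 20.9, 69.3 and 28.6 RPKM in SCUP (log2 fold change 3.33, SE 0.42, adjusted p = 0.00997). Its neighbour Solyc12g096740, also a polygalacturonase, had 104, 195 and 124 RPKM in SCP, against 8.07, 27.4 and 15.5 RPKM in SCUP (log2 fold change 3.13, SE 0.44, adjusted p = 0.0130). As neighbours of 1 family they may share reads. Solyc09g075330, a pectinesterase, had 18.9, 16.1 and 10.1 RPKM in SCP, against 0.240, 0.50 and 0.462 RPKM in SCUP (log2 fold change 4.07, SE 0.28, adjusted p = 0.00379). Solyc11g005750, another pectinesterase, had 3.44, 3.17 and 3.11 RPKM in SCP, against 1.53, 1.55 and 1.35 RPKM in SCUP (log2 fold change 0.92, SE 0.20, adjusted p = 0.0400).

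Xyloglucan transferases cut and rejoin the xyloglucan that tethers cellulose and so allow walls to expand. All 7 tested members had been selected in S. chilense alone, and 1 of them rose (median log2 fold change -0.43). Solyc12g011030 had 275, 125 and 167 RPKM in SCP, against 32.2, 38.1 and 38.2 RPKM in SCUP (log2 fold change 2.30, SE 0.29, adjusted p = 0.00997). The most abundant member, Solyc03g093080, had 508, 265 and 560.1 RPKM in SCP, against 305, 601 and 997 RPKM in SCUP, and its groups overlapped (adjusted p = 0.616). Glycosyl hydrolases, a list that shares members with this one, had 14 tested genes, of which 3 rose and 0 fell (median -0.02). The rises were 2 of the 3 selected in S. pimpinellifolium and 1 of the 11 selected in S. chilense alone. Of 8 tested hexosyltransferases, which add sugars to acceptors, 4 rose and 1 fell (median 1.17). All 4 rises and the fall were among the 7 selected in S. pimpinellifolium. Solyc01g107780 had 75.7, 71.0 and 73.7 RPKM in SCP, against 2.48, 8.32 and 4.58 RPKM in SCUP (log2 fold change 3.85, SE 0.37, adjusted p = 0.00551), with very little spread after pollination.

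Pyridoxal phosphate enzymes handle amino acids, and the list includes the enzymes that make the precursor of ethylene. Of 14 tested, 8 rose and 0 fell (median log2 fold change 1.48). The rises were 6 of the 9 selected in S. pimpinellifolium and 2 of the 5 selected in S. chilense alone. Beside the tandem genes above, Solyc04g025530 had 28.6, 47.3 and 48.2 RPKM in SCP, against 1.56, 6.13 and 4.51 RPKM in SCUP (log2 fold change 3.32, SE 0.45, adjusted p = 0.0113). Solyc11g005860 had 9.22, 6.81 and 5.95 RPKM in SCP, against 0.219, 0.570 and 0.281 RPKM in SCUP (log2 fold change 3.19, SE 0.27, adjusted p = 0.00445). Both calls held with each library left out in turn. Chosen after its values were seen, Solyc04g074480 is annotated with chorismate and aromatic amino acid biosynthesis, the route to phenylalanine and the phenolics made from it. It had 6589, 6377 and 3440.3 RPKM in SCP, against 778, 1176 and 907 RPKM in SCUP (log2 fold change 2.48, SE 0.34, adjusted p = 0.0119).

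Of 12 tested genes of lipid metabolism, 5 rose and 1 fell (median log2 fold change 1.01), and none of the 3 selected in S. chilense alone rose. Solyc12g100270, an iron-binding enzyme of fatty acid biosynthesis, had 7.56, 11.3 and 11.7 RPKM in SCP, against 0.0385, 0.561 and 1.04 RPKM in SCUP (log2 fold change 3.45, SE 0.41, adjusted p = 0.00858). Solyc02g065090 had 3.34, 3.09 and 2.61 RPKM in SCP, against 0.143, 0.397 and 0.413 RPKM in SCUP (log2 fold change 2.11, SE 0.26, adjusted p = 0.00896). In both genes the unpollinated libraries were near or under 1 RPKM. Of 12 tested peroxisome genes, an organelle that oxidizes fatty acids, 7 rose and 0 fell (median 1.09). All 7 were among the 9 selected in S. pimpinellifolium, and none of the 3 selected in S. chilense alone rose. Solyc12g044940, a peroxisomal oxidoreductase, had 113, 100.5 and 82.7 RPKM in SCP, against 18.0, 20.3 and 18.3 RPKM in SCUP (log2 fold change 2.34, SE 0.17, adjusted p = 0.00379). Solyc05g010720 had 9.40, 12.9 and 8.48 RPKM in SCP, against 2.08, 2.44 and 1.67 RPKM in SCUP (log2 fold change 2.06, SE 0.23, adjusted p = 0.00789).

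Of 30 tested transporters, 13 rose and 1 fell (median log2 fold change 1.02). These were 11 rises among 17 genes selected in S. pimpinellifolium and 2 among 13 selected in S. chilense alone, near the shares of all genes so selected. Solyc09g074530, annotated with carbohydrate transport in the plasma membrane, had 1516, 1732 and 1081 RPKM in SCP, against 112, 295 and 191 RPKM in SCUP (log2 fold change 2.93, SE 0.38, adjusted p = 0.0105). It was the most abundant transporter of the list. Solyc01g103030, a plasma membrane transporter annotated with the response to nematodes, had 9.74, 9.73 and 13.2 RPKM in SCP, against 0.902, 0.332 and 0.357 RPKM in SCUP (log2 fold change 3.50, SE 0.28, adjusted p = 0.00379). Solyc03g097840 had 32.7, 24.9 and 21.5 RPKM in SCP, against 1.49, 3.92 and 1.89 RPKM in SCUP (log2 fold change 3.26, SE 0.33, adjusted p = 0.00612). The fall was that of Solyc01g104030, a voltage-gated potassium channel, with 30.0, 34.2 and 37.0 RPKM in SCP, against 72.9, 55.1 and 74.96 RPKM in SCUP (log2 fold change -0.98, SE 0.18, adjusted p = 0.0262).

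Of 41 tested genes annotated with the response to water deprivation, salt or wounding, 19 rose and 2 fell (median log2 fold change 1.12), 3 of the rises being among the 16 genes selected in S. chilense alone. These shares too were near those of all genes so selected. This list shares members with the defence list, Solyc01g097270 among them. Solyc09g075820, an alkenal reductase annotated with abscisic acid and drought responses, had 42.3, 38.7 and 32.0 RPKM in SCP, against 0.719, 4.33 and 2.92 RPKM in SCUP (log2 fold change 3.80, SE 0.48, adjusted p = 0.0102). Its call held with each library left out in turn. The falls, Solyc02g068640 and Solyc01g060250, both had a log2 fold change of -1.04.

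Plastid and ribosome genes fell more often than they rose. Of 44 tested genes of the chloroplast stroma, envelope and thylakoid, 6 rose and 10 fell (median log2 fold change -0.98, against -0.12 over all tested genes). Of the 12 selected in S. chilense alone, 0 rose and 2 fell (median -0.33). The falls are modest, and none stayed called with each library left out in turn. Solyc03g071590 had 8.86, 17.6 and 19.2 RPKM in SCP, against 48.2, 46.6 and 29.9 RPKM in SCUP (log2 fold change -1.46, SE 0.33, adjusted p = 0.0481). Solyc08g076480, a structural protein of the thylakoid membrane, had 23.3, 40.9 and 37.0 RPKM in SCP, against 70.9, 79.3 and 67.7 RPKM in SCUP (log2 fold change -1.13, SE 0.23, adjusted p = 0.0371). Solyc06g068500, a stromal protein annotated with the response to light, had 19.8, 29.0 and 19.3 RPKM in SCP, against 62.3, 40.9 and 42.7 RPKM in SCUP (log2 fold change -1.08, SE 0.24, adjusted p = 0.0449). In each, the highest pollinated library stayed below the lowest unpollinated one.

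The strongest of the 6 rises of this list, Solyc03g096550 and its neighbour Solyc03g096540, carry only membrane terms, of the vacuole and plasma membrane as well as the thylakoid. Solyc03g096540 had 10.6, 10.6 and 10.1 RPKM in SCP, against 0.158, 0.165 and 1.52 RPKM in SCUP (log2 fold change 3.51, SE 0.45, adjusted p = 0.0102). Of 10 tested ribosome and translation genes, 0 rose and 2 fell (median log2 fold change -0.88). Both falls were among the 7 selected in S. pimpinellifolium (median -0.92). Solyc11g066410, a ribosomal protein of the chloroplast, had 4.86, 5.75 and 7.65 RPKM in SCP, against 11.6, 13.2 and 14.8 RPKM in SCUP (log2 fold change -1.07, SE 0.21, adjusted p = 0.0336). Solyc01g110550, annotated with the processing of ribosomal RNA, had 3.16, 3.82 and 3.24 RPKM in SCP, against 6.52, 6.90 and 7.59 RPKM in SCUP (log2 fold change -0.94, SE 0.18, adjusted p = 0.0300). The 3 members selected in S. chilense alone had log2 fold changes of 0.13 to 0.44 and were not called.

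The largest falls carry no term in the annotation held here. Solyc02g065780 had 2.09, 0.798 and 2.49 RPKM in SCP, against 10.8, 7.70 and 12.8 RPKM in SCUP (log2 fold change -2.31, SE 0.36, adjusted p = 0.0173). Solyc02g069250 had 14.2, 15.6 and 37.9 RPKM in SCP, against 124, 67.7 and 105 RPKM in SCUP (log2 fold change -2.21, SE 0.41, adjusted p = 0.0273). Solyc01g080910 had 0.597, 1.58 and 1.31 RPKM in SCP, against 5.51, 8.14 and 6.98 RPKM in SCUP (log2 fold change -2.19, SE 0.30, adjusted p = 0.0121). Neighbouring genes also appear here. Solyc10g007560 had 1.95, 4.25 and 2.39 RPKM in SCP, against 16.5, 13.4 and 12.6 RPKM in SCUP (log2 fold change -2.18, SE 0.28, adjusted p = 0.0105). Solyc10g007570 had 1.04, 3.35 and 1.89 RPKM in SCP, against 10.5, 8.59 and 7.85 RPKM in SCUP (log2 fold change -1.96, SE 0.35, adjusted p = 0.0239). Both were highest in SCP2 among pollinated and in SCUP1 among unpollinated libraries.

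Few falls were steady across libraries. Of the 15 largest, Solyc01g111700 alone stayed called with each library left out in turn, with 29.6, 27.2 and 31.3 RPKM in SCP, against 123, 88.8 and 108 RPKM in SCUP (log2 fold change -1.83, SE 0.17, adjusted p = 0.00502). The remaining 2 falls that stayed called each time, named here after their values were seen, were Solyc02g070770 and Solyc08g075150. Solyc02g070770 had 15.5, 20.5 and 17.9 RPKM in SCP, against 57.3, 45.4 and 57.7 RPKM in SCUP (log2 fold change -1.55, SE 0.18, adjusted p = 0.00817). Solyc08g075150 had 0.746, 0.867 and 0.915 RPKM in SCP, against 6.08, 4.23 and 3.48 RPKM in SCUP (log2 fold change -1.89, SE 0.25, adjusted p = 0.0110).

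The most abundant transcripts of the style were not called. Solyc04g071610, the first of them, had 10015, 12055 and 14983 RPKM in SCP, against 25812, 19884 and 22757 RPKM in SCUP (log2 fold change -0.90, SE 0.38, adjusted p = 0.186). Solyc01g088580 had 18393, 9015 and 11806 RPKM in SCP, against 20365, 16717 and 23190.0 RPKM in SCUP (adjusted p = 0.354). The groups of Solyc04g071610 did not overlap and those of Solyc01g088580 did. The fourth, Solyc03g078260, belongs to the profile of Solyc05g052110, with 7999, 8712 and 8810.5 RPKM in SCP, against 5201, 13325 and 7730.5 RPKM in SCUP (adjusted p = 0.944). The eighth, Solyc07g049550, is annotated with ethylene synthesis and had 8542, 7149 and 6560.2 RPKM in SCP, against 3622, 4734 and 3672 RPKM in SCUP (log2 fold change 0.89, SE 0.29, adjusted p = 0.110). Of 1901 genes with a mean of at least 100 RPKM, 107 rose and 30 fell.

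At the other end, 9 genes were under 1 RPKM in every SCUP library and at least 5 RPKM in every SCP library, and 0 genes showed the reverse. The 9 were chosen by these values and all were among the rises. They were Solyc01g005500, Solyc01g096560, Solyc01g103030, Solyc01g106610, Solyc06g062920, Solyc07g040890, Solyc07g055710, Solyc09g075330 and Solyc11g005860. They include the pectinesterase, the transporter, the transcription factor and the pyridoxal phosphate enzyme described above. Solyc01g106610, without a term, had 9.81, 9.87 and 21.2 RPKM in SCP, against 0, 0.295 and 0.544 RPKM in SCUP (log2 fold change 4.15, SE 0.40, adjusted p = 0.00551). Solyc06g062920, a serine/threonine kinase, had 9.85, 9.67 and 7.78 RPKM in SCP, against 0.160, 0.50 and 0.770 RPKM in SCUP (log2 fold change 3.34, SE 0.29, adjusted p = 0.00445).

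Whether the response differed from that of self-incompatible styles was tested as (SCP - SCUP) - (SIP - SIUP) over the 12 libraries and the same 18913 genes. The species do not share samples, and levels were not compared between them, since reads of both were aligned to the genome of cultivated tomato. The responses differed for 191 genes (1.01%), being higher in S. pimpinellifolium for 156 and lower for 35 (limma, adjusted p under 0.05). Of the 881 rises, 150 differed, of the 422 falls 13. These genes were called on libraries that also enter the difference. A larger response in S. pimpinellifolium than in S. chilense is therefore partly built into them, here and in the values that follow. In S. chilense the median log2 fold change of the rises was 0.52, and 758 of them had the same sign there and 89 were themselves called. For the falls the median there was -0.49, with 373 of the same sign and 14 called. The genes that rose took 3.43%, 3.16% and 2.99% of the summed RPKM in SIP, against 1.78%, 1.84% and 1.91% in SIUP. The number of differing genes depended on single libraries and was 27 without SIUP3, 30 without SIP3 and 432 without SCP1.

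**Figure D5:**
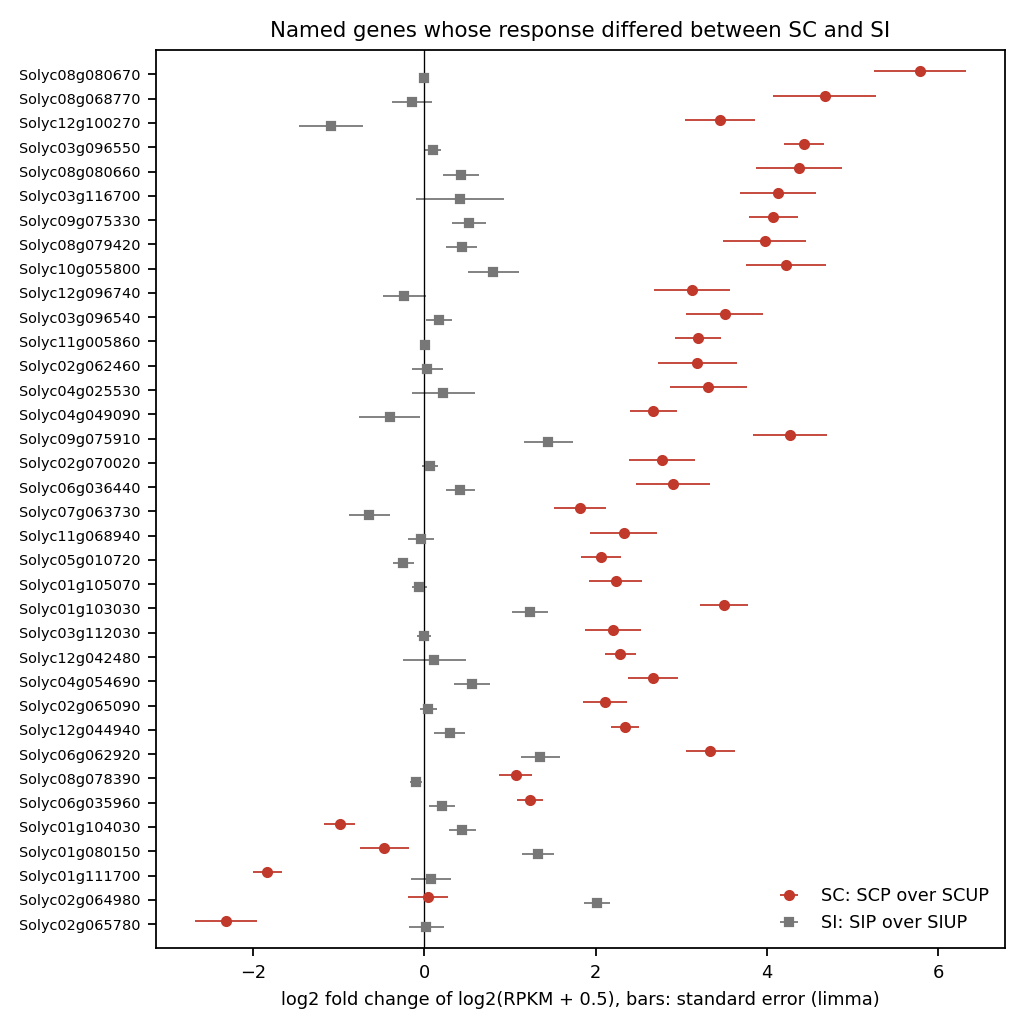
Log2 fold change (horizontal axis) of SCP over SCUP (circles) and of SIP over SIUP (squares) for the 36 named genes whose responses differed between the species, with limma standard errors as bars. For 31 of the genes the S. pimpinellifolium response lies to the right of that of S. chilense, and for 5 to the left. Named genes were largely chosen by their change in S. pimpinellifolium, so this balance is partly built in.

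Defence and wall genes gave several of these differences. The chitinase Solyc10g055800 averaged 1.81 ± 0.454 RPKM in SIP and 0.857 ± 0.478 RPKM in SIUP (SD, n = 3 each), and its response was larger in S. pimpinellifolium by 3.42 on the log2 scale (SE 0.60, adjusted p = 0.0275). The pectinesterase Solyc09g075330 averaged 0.363 ± 0.186 RPKM in SIP and 0.0947 ± 0.0820 RPKM in SIUP, a difference of 3.55 (SE 0.38, adjusted p = 0.00641). The pair of polygalacturonases split, since Solyc12g096740 differed (3.36, SE 0.56, adjusted p = 0.0235) and Solyc12g096750 did not pass (1.59, SE 0.79, adjusted p = 0.433). Some differences rest on genes with almost no reads in S. chilense. In 53 of the 191 genes both S. chilense means were under 0.5 RPKM, the value added before the log, so that a fall could hardly show there and the difference is mostly the S. pimpinellifolium response. Solyc03g096550 averaged 0.0396 ± 0.0685 RPKM in SIP and was at 0 in SIUP, a difference of 4.33 (SE 0.30, adjusted p = 0.000288). Solyc09g075330 was also among these genes. Solyc08g068770, of sulfate transport, averaged 2.44 ± 0.656 RPKM in SIP and 2.72 ± 0.624 RPKM in SIUP, a difference of 4.81 (SE 0.71, adjusted p = 0.0163). How well reads of each gene of S. chilense align to the genome used was not tested.

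Other rises were of similar size in both species. The dioxygenase Solyc11g007890 averaged 28.4 ± 10.7 RPKM in SIP and 0.950 ± 0.670 RPKM in SIUP, with a difference of -0.23 (SE 0.55, adjusted p = 0.915). The sperm cell kinase Solyc02g090970 averaged 183 ± 6.10 RPKM in SIP and 29.8 ± 7.72 RPKM in SIUP, with a difference of -0.29 (SE 0.53, adjusted p = 0.888). These p-values do not show that the responses were equal. The potassium channel Solyc01g104030 averaged 65.4 ± 3.88 RPKM in SIP and 48.5 ± 9.35 RPKM in SIUP, and its response was lower in S. pimpinellifolium (difference -1.43, SE 0.24, adjusted p = 0.0239). Among the 296 genes with the profile of Solyc05g052110, the median log2 fold change in S. chilense was 1.34, none was called there, and none differed between the species.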

How the data were processed

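RNA of styles was sequenced as read pairs on an Illumina HiSeq. According to the labels and the study's methods, reads were trimmed with Trimmomatic 0.32, mapped to the tomato genome by TopHat2 and assigned to genes by HTSeq, and the authors deposited RPKM values. The genome build and the handling of reads with several matches were not given in the sources used here. By the deposited counts of read pairs, 89.4% to 90.0% of the pairs of an S. pimpinellifolium library passed the authors' filter. Columns of the authors' own p-values and log2 ratios were not used. Of 34725 genes listed, 7 hold error codes.

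Values were analysed as log2(RPKM + 0.5) with limma 3.58.1 (R 4.3.3, empirical Bayes with an intensity trend), 2-sided, over the 6 libraries of S. pimpinellifolium, or 12 for the difference between species. Fold changes on this scale understate those of genes with low values. Whole reads could be recovered from steps in the values, for 100% of 26562 genes within a tolerance of 0.001, and voom (limma) on them was an alternative. It called 1224 genes. Tables were made with pandas 2.3.3 and numpy 2.4.6 (Python 3.11.15), and figures with matplotlib 3.10.9. The procedure was tested on simulated data.

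The genes and lists were chosen with earlier results of these data known. Product names were not used here, so lists came from Gene Ontology terms of the study's annotation, of which the sheet for S. pimpinellifolium was held in part. This replaced a grouping by product names. Named are the called genes with the 15 largest changes in each direction whose libraries do not overlap and whose higher group mean is at least 5 RPKM, up to 4 called members of a list in each direction, its 2 most abundant members, the 10 most abundant genes and pollen-annotated genes. Alternatives were other scalings, filters and pseudocounts, no trend, a replicate block, all 12 libraries, an unequal-variance test on RPKM and each library left out. The covariate for the profile of Solyc05g052110 was chosen after seeing the data.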

Additional observations from a re-analysis of the deposited data

Results flagged for a closer look

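The responses of 36 of the named genes differed between S. pimpinellifolium and S. chilense by the test of (SCP - SCUP) - (SIP - SIUP) over 12 libraries (limma, Benjamini-Hochberg adjusted p under 0.05). Differences are on the log2 scale, and a positive one means a larger response in S. pimpinellifolium. Of the 36 genes, 13 had both S. chilense means under 0.5 RPKM, the value added before the log, so their difference is mostly the response in S. pimpinellifolium. Among the largest rises the differences were 5.79 for Solyc08g080670, which is listed at 0 in all 6 S. chilense libraries and so gives no response there to compare, 4.81 for Solyc08g068770, 4.33 for Solyc03g096550 and 3.95 for Solyc08g080660. Among defence, chitin and wall genes they were 3.42 for Solyc10g055800, 3.55 for Solyc09g075330, 3.36 for Solyc12g096740 and 1.03 for Solyc06g035960. Among kinases and calmodulin binding they were 2.83 for Solyc09g075910, 2.46 for Solyc07g063730, 1.98 for Solyc06g062920 and 3.08 for Solyc04g049090. The ubiquitin ligase Solyc11g068940 differed by 2.37.

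Among oxidative enzymes and copper proteins the differences were 3.54 for Solyc08g079420, 2.17 for Solyc12g042480, 2.20 for Solyc03g112030, 3.15 for Solyc02g062460, 2.29 for Solyc01g105070, 3.71 for Solyc03g116700 and 2.11 for Solyc04g054690. In metabolism they were 3.18 for Solyc11g005860, 3.09 for Solyc04g025530, 2.71 for Solyc02g070020, 4.54 for Solyc12g100270, 2.07 for Solyc02g065090, 2.04 for Solyc12g044940, 2.30 for Solyc05g010720 and 1.16 for Solyc08g078390. In transport and membranes they were 2.26 for Solyc01g103030, 2.48 for Solyc06g036440 and 3.33 for Solyc03g096540.

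Responses that were lower in S. pimpinellifolium were those of Solyc02g065780 (-2.34), Solyc02g064980 (-1.97), Solyc01g111700 (-1.91), Solyc01g080150 (-1.80) and Solyc01g104030 (-1.43). Solyc01g111700 averaged 0.223 RPKM in SIP and 0.208 RPKM in SIUP, too low to show a fall. Of these genes, Solyc02g064980 and Solyc01g080150 are annotated with sperm cells and pollen tube growth. Solyc02g064980 averaged 43.4 ± 5.20 RPKM in SIP and 10.4 ± 1.71 RPKM in SIUP (SD, n = 3 each), and its SCP and SCUP libraries overlapped. Solyc01g080150 had 2.37, 1.49 and 1.78 RPKM in SCP, against 3.81, 1.93 and 2.79 RPKM in SCUP.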

How the results depend on the processing

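No called named gene was reversed under any alternative, and named genes that were not called were left out of this count. With all 12 libraries in the fit, falls outnumbered rises. That fit gave 3708 calls (1634 rises, 2074 falls, 75 falls in the lists), upper-quartile scaling 827 falls (45 in the lists), and no filter 225 falls (15 in the lists). An unequal-variance test on RPKM called 1 gene (0 rises, 1 fall, and 0 rises and 0 falls in the lists), with 3216 genes at an unadjusted p under 0.05. Leaving out 1 library gave 225 to 1363 calls, 215 to 1023 rises and 10 to 529 falls, and in the lists 67 to 159 rises and 0 to 26 falls. With a replicate block 248 genes fell (15 in the lists) and 851 rose. The correlations of same-numbered deviations were 0.364, 0.199 and -0.068, and those of unlike-numbered ones ran from -0.385 to 0.351. With 3 libraries per group these values cannot decide whether libraries of the same number belong together. The 191 differences between species became 106 with a pseudocount of 0.1, 389 with quantile normalization, 27 with voom, and 27 to 432 with 1 library left out. The cause of these shifts was not tested. Of 2429 alternative values of the called named genes, 482 lost the call.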
